A study of Drosophila melanogaster with 72 samples.

Results

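Embryos of Drosophila melanogaster in which IntS11, a subunit of the Integrator complex, was mislocalized were compared with wild type embryos at 2.5 to 3 h, in the libraries prepared for a rescue experiment. The comparison rests on 4 of the 72 libraries of the series, 2 mislocalized and 2 wild type, taken by title, and covers all 16680 genes of each file. The files hold RSEM expected counts from strand-specific libraries of rRNA-depleted total embryo RNA. The rescue experiment has 12 other libraries: the same 2 lines at 1 to 1.5 h, and the lines FlagIntS11WT and FlagIntS11E203Q in both windows. A first experiment made the comparison of mislocalized (labelled Mutant) with wild type embryos at 2.5 to 3 h in 4 further libraries. Libraries of embryos treated with alpha-amanitin, which inhibits RNA polymerase II, and of their controls served to sort genes by response. The labels name the 2 groups compared in the rescue set as IntS11mislocalized and WT, with no strain, allele, driver or agent. How IntS11 was mislocalized, how many embryos were pooled and whether replicates were separate collections are not given in the sources used here. Therefore p-values measure only the spread between these libraries.

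Integrator binds RNA polymerase II early in transcription. IntS11 is its endonuclease, which cuts the ends of small nuclear RNAs and the nascent transcripts of many protein-coding genes, and with IntS9 and IntS4 it forms the cleavage module of the complex. The early fly embryo develops on RNAs supplied by the mother. These are degraded while the zygotic genome is activated, first in a minor wave of mostly short genes and then in a major wave that accompanies cellularization of the blastoderm and patterning of the body axes.

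The 2 mislocalized libraries held 17438766 and 17474262 expected counts and the 2 wild type libraries 13017083 and 14215259. Levels are given as CPM, counts per 1000000 of the TMM-adjusted library size, and changes as log2 of mislocalized over wild type with their standard error (SE, n = 2 libraries per group). Log CPM of replicates correlated across genes at 0.996 in mislocalized embryos and 0.994 in wild type, and that of libraries of different groups at 0.866 to 0.867. Replicates still differed by more than sampling noise, with a chi-square per degree of freedom of 2.94 in mislocalized embryos and 4.43 in wild type. Cellularization, patterning and maternal genes of the early embryo were present in all 4 libraries.

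Markers of other tissues and stages were present as well and moved with the groups. The 13 markers of ovary, eggshell and yolk summed to 80.8 and 86.2 CPM in mislocalized libraries, against 2.18 and 1.43 CPM in wild type. All 13 were higher in mislocalized embryos, and 6 of them had 0 counts in wild type. Genes so low in wild type pass the count filter only through libraries where they are high, so this direction is partly built in. In the first experiment 2 of the 13 could be tested. In the first experiment this list summed to 2.45 and 2.37 CPM in mislocalized libraries, against 2.79 and 2.18 CPM in wild type. The 10 muscle markers summed to 349 and 349 CPM in mislocalized libraries, against 643 and 684 CPM in wild type. All 10 were lower, with a median log2 change of -3.86. With alpha-amanitin at 2.5 to 3 h the muscle sum was 308 and 300 CPM. In wild type of the rescue set at 1 to 1.5 h it was 337 and 325 CPM, so a large part of it was present in the earlier window already. The 47 Osiris and Tweedle genes, most of which act in the cuticle late in embryogenesis, summed to 8.68 and 8.71 CPM in mislocalized libraries, against 154 and 164 CPM in wild type. Of these, 17 could be tested, with 3 higher and 10 lower. The list summed to 140 and 139 CPM in wild type of the first experiment. Osi6, at 79.1 and 82.4 CPM in wild type of the rescue set, had 0 counts there, so these sums rest on partly different genes. In the controls of the alpha-amanitin experiment at 2.5 to 3 h the list summed to 2.26 and 2.29 CPM. Of 8 neuron and glia markers 1 was higher and 6 lower. Of the 6 hemocyte markers 3 could be tested, with 2 higher and 1 lower, and of the 8 late epidermis markers 3, with 2 higher and 0 lower. All 5 markers of pole cells, which are part of the embryo at this stage, were higher. They summed to 635 and 654 CPM in mislocalized libraries, against 168 and 180 CPM in wild type. At 1 to 1.5 h the sums were 1834 and 1847 CPM in mislocalized libraries, against 2226 and 2166 CPM in wild type. The part of these markers' tissues in the results was not tested.

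**Figure D1:**
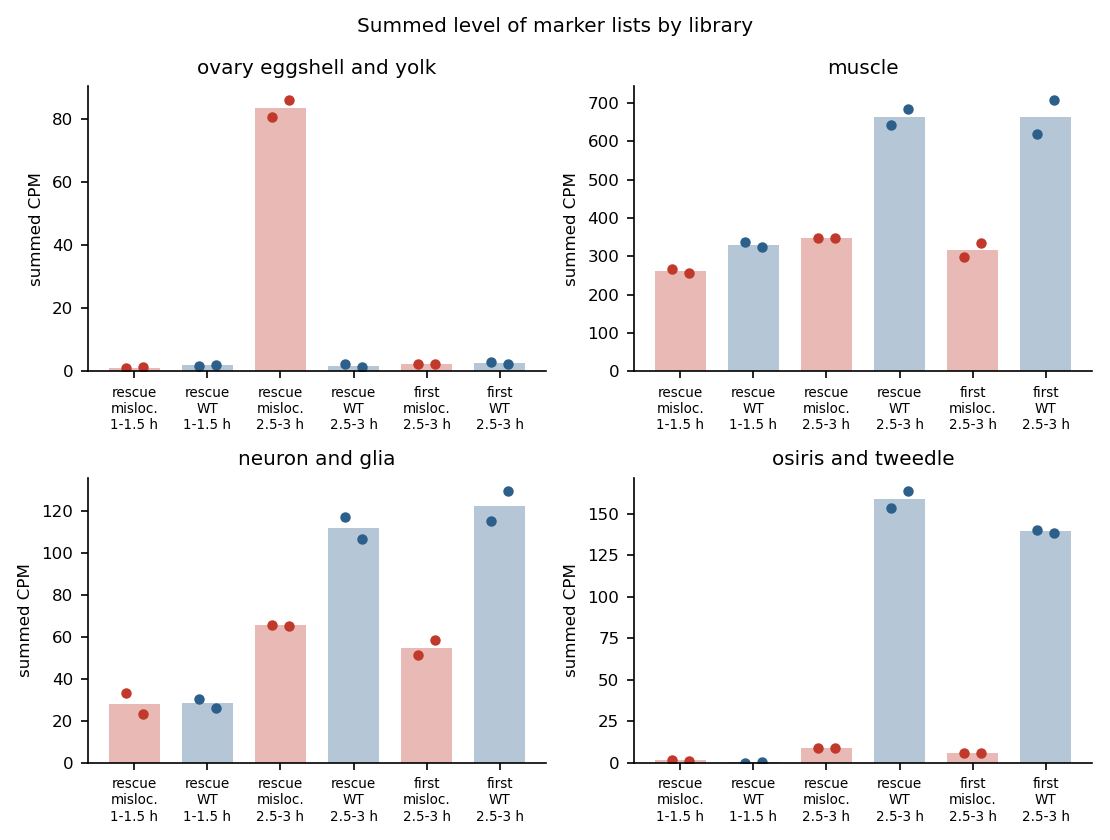
Summed CPM (vertical axes) of 4 marker lists in 6 groups of libraries; bars are group means and points the 2 libraries of each group, mislocalized in red to the left of its wild type in blue. Ovary markers reach 80.8 and 86.2 CPM in mislocalized libraries of the rescue experiment at 2.5 to 3 h and at most 2.79 CPM in the other groups. At 2.5 to 3 h Osiris and Tweedle genes sum to 154 and 164 CPM in wild type of the rescue experiment. In wild type of the first experiment they sum to 140 and 139 CPM, from partly different members.

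Most genes differed between the groups. Of 9156 genes with enough counts to test, 7497 (81.9%) were called in the quasi-likelihood test of edgeR, at a Benjamini-Hochberg adjusted p below 0.05. Higher in mislocalized embryos were 3738 (40.8%) and lower 3759 (41.1%). At least 2-fold, 1890 (20.6%) were higher and 2260 (24.7%) lower. The median log2 change of all genes tested was 0.00, and 3674 genes had 0 counts in all 4 libraries. With RLE size factors the median was -0.16, with 3243 genes higher and 4309 lower, so calls near 0 depend on the scaling. Every gene described below as higher, lower, risen or fallen passed this test. Since whole embryos were measured, fewer cells of a type and less RNA per cell cannot be told apart.

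The 12 largest rises among genes with a name held 7 ovary genes and 5 others. The gene w, an eye pigment transporter that is widely used as a marker in fly transgenes, had 1519.95 and 1603 CPM in mislocalized embryos, against 3.61 and 6.74 CPM in wild type (log2 change 8.22 ± 0.11). Jabba, which anchors histones on lipid droplets, had 961 and 981 CPM in mislocalized embryos, against 22.6 and 20.8 CPM in wild type (log2 change 5.49 ± 0.06). CAH2, a carbonic anhydrase, had 303 and 297 CPM in mislocalized embryos, against 7.07 and 8.1 CPM in wild type (log2 change 5.30 ± 0.08). In all 3 the mislocalized libraries lay far above the wild type libraries, as they did in the first experiment, with log2 changes of 10.98 ± 0.16, 5.89 ± 0.10 and 5.68 ± 0.11. The cytochrome P450 genes Cyp6a20 and Cyp6t1 rose by 5.71 ± 0.22 and 4.20 ± 0.18 on the log2 scale. Of the ovary genes, the chorion gene Cp38 had 9.44 and 8.11 CPM in mislocalized embryos and 0 counts in wild type. The chorion gene Cp36 had 8.51 and 8.87 CPM in mislocalized embryos and the vitelline membrane gene Vm26Aa 5.18 and 7.13 CPM, both with 0 counts in wild type. Set against 3 counts over the wild type group, Cp38 was at least 81.9-fold, Cp36 at least 81.1-fold and Vm26Aa at least 57.5-fold higher. The yolk protein gene Yp2 had 12.5 and 12.4 CPM in mislocalized embryos and 1 count in wild type.

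The 12 largest falls included genes of patterning, of late markers and of other roles. Osi6, an Osiris gene, had 0 counts in both mislocalized libraries, against 79.1 and 82.4 CPM in wild type, and was at least 987-fold lower. Osi7 had 0.437 and 0.272 CPM in mislocalized embryos, against 46.4 and 55.3 CPM in wild type. In wild type of the first experiment Osi6 had 0 counts and Osi7 averaged 0.0454 CPM, so these genes could not be tested there. The T-box gene Doc2 of the dorsal ectoderm had 0.218 and 0.163 CPM in mislocalized embryos, against 43.6 and 41.1 CPM in wild type (log2 change -7.73 ± 0.19). The pair-rule gene opa had 4.69 and 4.74 CPM in mislocalized embryos, against 329.98 and 329 CPM in wild type (log2 change -6.12 ± 0.09). The BTB transcription factor gene lov had 4.04 and 4.14 CPM in mislocalized embryos, against 257 and 265 CPM in wild type (log2 change -5.99 ± 0.09). The adenylate cyclase gene Ac78C had 6.71 and 6.53 CPM in mislocalized embryos, against 418 and 416 CPM in wild type (log2 change -5.97 ± 0.08). In each of these 4 genes both mislocalized libraries lay far below both wild type libraries, and each fell in the first experiment too, Doc2 with a log2 change of -7.94 ± 0.21, opa of -5.96 ± 0.15, lov of -6.42 ± 0.14 and Ac78C of -6.51 ± 0.12. The muscle troponin gene TpnC47D, with 4 counts over the mislocalized libraries, had 6.92 and 5.72 CPM in wild type. Over the 24 genes the largest adjusted p was 1.08e-08, for the vitelline membrane gene Vm34Ca (edgeR, Benjamini-Hochberg).

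RNA of IntS11 itself (dm6, chromosome 3R, 29745337 to 29747513, protein-coding) did not separate the groups in CPM. It had 174 and 176 CPM in mislocalized embryos, against 186 and 169 CPM in wild type. The wild type libraries lay on either side of the mislocalized ones, and the gene was not called (log2 change -0.02 ± 0.06, adjusted p = 0.728, edgeR with Benjamini-Hochberg adjustment), although with RLE size factors it was called lower, at -0.18. In TPM, the length-scaled levels that the authors gave beside the counts, both mislocalized libraries were higher, at 70.6 and 71.4, against 65.3 and 58.8 in wild type. In the first experiment IntS11 RNA was lower in mislocalized embryos (log2 change -0.73 ± 0.08), but the median of all genes in that fit was -0.38. In a joint fit of 8 libraries, where the median was -0.07, IntS11 stood at -0.40 ± 0.08 in the first experiment and at -0.06 ± 0.07 in the rescue set. The difference in that fit was 0.34 ± 0.11 on the log2 scale (adjusted p = 0.0196, edgeR). IntS9, the inactive partner of IntS11, had 73.6 and 78.5 CPM in mislocalized embryos, against 72.1 and 71.6 CPM in wild type (log2 change 0.08 ± 0.06), and was not called (adjusted p = 0.208, edgeR). IntS4, the scaffold of the cleavage module, had 135 and 131 CPM in mislocalized embryos, against 66.1 and 63.9 CPM in wild type (log2 change 1.03 ± 0.07). It was the member of the module whose libraries separated widely. This rise was not seen in the first experiment, where 0 of the 3 module genes were called higher and 2 lower, IntS11 and IntS9. In the test between experiments 2 of the 3 had a larger value in the rescue set, IntS11 and IntS4.

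Of 11 other Integrator subunits 5 were higher and 4 lower, near the shares of all genes tested (40.8% higher and 41.1% lower). IntS1, a large scaffold subunit, had 19.8 and 18.9 CPM in mislocalized embryos, against 108 and 111 CPM in wild type (log2 change -2.50 ± 0.06). IntS8, which links Integrator to the phosphatase PP2A, had 30.4 and 30.1 CPM in mislocalized embryos, against 62.1 and 64.4 CPM in wild type (log2 change -1.06 ± 0.08). The libraries of the groups did not overlap in either gene, and defl, the fly IntS7, changed about as much as IntS8 (-1.07 ± 0.08 on the log2 scale). IntS12 had 57.4 and 54.9 CPM in mislocalized embryos, against 14.3 and 13.4 CPM in wild type (log2 change 2.02 ± 0.09). IntS6, also part of the phosphatase module, had 250.04 and 240.2 CPM in mislocalized embryos, against 110.2 and 108 CPM in wild type (log2 change 1.17 ± 0.07). IntS10 and asun rose less, by 0.90 ± 0.07 and 0.66 ± 0.06 on the log2 scale. The first experiment gave the same directions, with log2 changes of -3.59 ± 0.10 for IntS1, -2.21 ± 0.09 for IntS8, 1.24 ± 0.09 for IntS12 and 1.86 ± 0.12 for IntS6. At 1 to 1.5 h IntS1 had 139.5 and 141 CPM in mislocalized embryos, against 159 and 159 CPM in wild type, a far smaller gap than at 2.5 to 3 h.

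Of 15 factors of polymerase pausing and elongation 4 were higher and 8 lower, where 40.8% of all genes tested were higher and 41.1% lower. Nelf-A, a subunit of the negative elongation factor, had 30.8 and 35.5 CPM in mislocalized embryos, against 149.7 and 146 CPM in wild type (log2 change -2.16 ± 0.08). CycT, the cyclin of the pause-release kinase, had 82.7 and 79.6 CPM in mislocalized embryos, against 370.4 and 361 CPM in wild type (log2 change -2.17 ± 0.06). Partners in the same complexes changed less, Nelf-E by 0.51 ± 0.08, TH1 by -0.50 ± 0.06 and the kinase Cdk9 by -0.50 ± 0.06 on the log2 scale. Rtf1, linked to the Paf1 complex, rose by 1.2 ± 0.07. Of 12 factors of mRNA 3' end cleavage 2 were higher and 6 lower, or 10 lower with RLE size factors. Cpsf73, the paralog of IntS11 that cuts mRNA ends, had 8.51 and 8.27 CPM in mislocalized embryos, against 35.6 and 36.1 CPM in wild type (log2 change -2.09 ± 0.09), and lay apart from the rest of that list, in which the next largest change was -0.71, for cbc.

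Zygotic genes of the cellularizing blastoderm were lower in mislocalized embryos. Of 5 cellularization genes 4 were lower, with a median log2 change of -2.66. The gene slam, needed for membrane growth between nuclei, had 954 and 965 CPM in mislocalized embryos, against 6176 and 5936 CPM in wild type (log2 change -2.66 ± 0.05). Sry-alpha, an actin regulator, had 259 and 271 CPM in mislocalized embryos, against 2091 and 2043 CPM in wild type (log2 change -2.96 ± 0.05). Both mislocalized libraries lay far below both wild type libraries in each gene. For bnk, which delays closure of the cell bases, the levels were 101 and 112 CPM in mislocalized embryos, against 660.3 and 682 CPM in wild type (log2 change -2.65 ± 0.05). The gene halo, a regulator of lipid droplet transport, had 68.9 and 66.8 CPM in mislocalized embryos, against 832 and 796 CPM in wild type (log2 change -3.58 ± 0.07). The exception was nullo, a gene of the basal junctions, which had 11.6 and 13.7 CPM in mislocalized embryos, against 10.3 and 13.1 CPM in wild type with overlapping libraries (adjusted p = 0.478, edgeR). In wild type nullo had already fallen, since at 1 to 1.5 h it stood at 2.31 and 1.96 CPM in mislocalized embryos and 20 and 25.5 CPM in wild type.

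**Figure D2:**
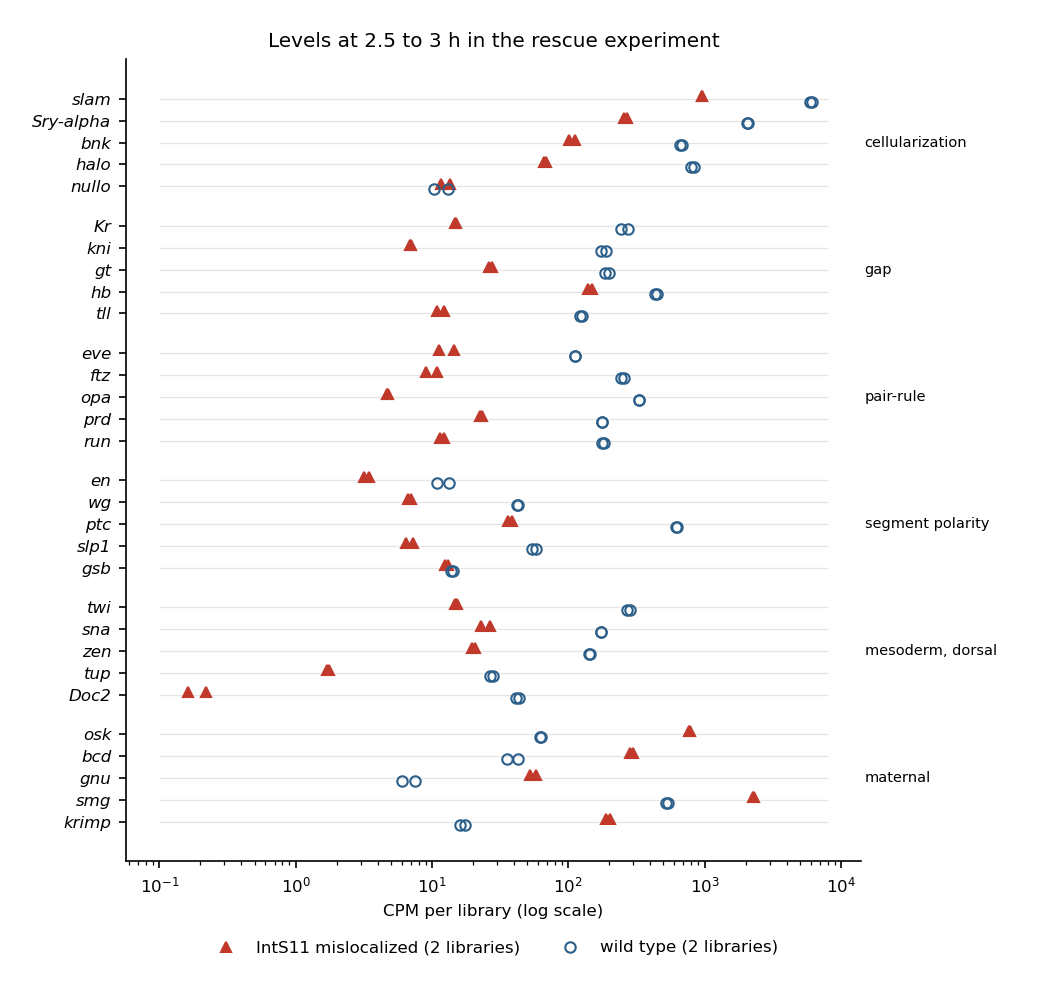
CPM of single genes in each library at 2.5 to 3 h on a log axis, grouped by role; filled triangles are the 2 mislocalized libraries and open circles the 2 wild type libraries. Triangles lie left of the circles for the zygotic genes shown except nullo, where they overlap, and gsb, where they nearly touch, and right of the circles for the 5 maternal genes.

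All 16 other blastoderm genes were lower, with a median log2 change of -3.38. The Patched-related gene Ptr had 38.9 and 40.4 CPM in mislocalized embryos, against 1610.5 and 1627 CPM in wild type (log2 change -5.35 ± 0.05). Elba2, a subunit of an early insulator complex, had 355 and 373 CPM in mislocalized embryos, against 1125 and 1075 CPM in wild type (log2 change -1.60 ± 0.05). Bsg25D, a centrosomal gene, had 321 and 327 CPM in mislocalized embryos, against 1504 and 1439.8 CPM in wild type (log2 change -2.18 ± 0.05). These 3 were among the 4 most abundant of the list and marked most of its range, from -5.35 for Ptr to -1.59 for bou. SNCF, a gene of the early wave, had 23.4 and 25.3 CPM in mislocalized embryos, against 614 and 657 CPM in wild type (log2 change -4.71 ± 0.07). The largest adjusted p of the list was 4.87e-13, for bou (edgeR, Benjamini-Hochberg).

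Segmentation genes divide the embryo along its length in tiers, from gap through pair-rule to segment polarity genes. All 7 gap genes were lower, with a median log2 change of -3.41. Kr, active in the middle of the embryo, had 15 and 14.9 CPM in mislocalized embryos, against 245 and 273 CPM in wild type (log2 change -4.11 ± 0.10). The gene kni, active in the abdomen, had 6.88 and 7.08 CPM in mislocalized embryos, against 173 and 188 CPM in wild type (log2 change -4.69 ± 0.08). The knirps paralog knrl, which has long introns, had 0.382 and 0.49 CPM in mislocalized embryos, against 38.5 and 36.4 CPM in wild type (log2 change -6.40 ± 0.20). All 3 separated the groups by more than an order of magnitude. The gap gene gt had 26.1 and 27.8 CPM in mislocalized embryos, against 186 and 199.6 CPM in wild type (log2 change -2.84 ± 0.06). The gene hb, whose RNA is also maternal, had 140.1 and 149 CPM in mislocalized embryos, against 436 and 450.1 CPM in wild type (log2 change -1.62 ± 0.08) and was the least lowered of the list.

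All 9 pair-rule genes were lower, with a median log2 change of -3.93 and a range of -6.12 for opa to -2.95 for prd. The primary pair-rule gene eve had 11.2 and 14.5 CPM in mislocalized embryos, against 113 and 112 CPM in wild type (log2 change -3.13 ± 0.10). The primary gene h had 9.28 and 8.93 CPM in mislocalized embryos, against 149.8 and 171 CPM in wild type (log2 change -4.14 ± 0.09). The secondary gene ftz had 9 and 10.8 CPM in mislocalized embryos, against 244 and 255 CPM in wild type (log2 change -4.65 ± 0.09). In none of the 9 genes did the libraries of the groups overlap.

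Of 9 segment polarity genes 8 could be tested and 7 were lower, with a median log2 change of -1.85. The Hedgehog receptor gene ptc had 36 and 38.4 CPM in mislocalized embryos, against 632 and 618 CPM in wild type (log2 change -4.07 ± 0.06). The Wingless ligand gene wg had 6.66 and 7.02 CPM in mislocalized embryos, against 42.1 and 42.8 CPM in wild type (log2 change -2.63 ± 0.13). The Hedgehog ligand gene hh and the homeobox gene en had smaller log2 changes, -1.81 ± 0.16 and -1.88 ± 0.16, and en stood at 3.44 and 3.16 CPM in mislocalized embryos, against 10.9 and 13.3 CPM in wild type. The gene gsb, of the paired class, had 12.6 and 13.1 CPM in mislocalized embryos, against 13.9 and 14.3 CPM in wild type and was not called (log2 change -0.14 ± 0.12, adjusted p = 0.306, edgeR), though with RLE size factors it was called lower, at -0.30. In the first experiment gsb had 8.53 and 9.24 CPM in mislocalized embryos, against 59.1 and 66.6 CPM in wild type.

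Of 8 head patterning genes 7 were lower, with a median log2 change of -3.61. The Sox gene D had 10.8 and 12.1 CPM in mislocalized embryos, against 368 and 404 CPM in wild type (log2 change -5.08 ± 0.08). The homeobox gene oc had 3.93 and 4.08 CPM in mislocalized embryos, against 61.4 and 68.1 CPM in wild type (log2 change -4.01 ± 0.12). Both were lower without overlap, whereas ken, a zinc finger gene, had 12.9 and 14.9 CPM in mislocalized embryos, against 13 and 13.9 CPM in wild type and was not called. Of 8 Hox genes, which assign identity to segments, 7 were lower, with a median of -2.81. Antp, the thoracic gene, had 3.17 and 2.67 CPM in mislocalized embryos, against 18.3 and 19.6 CPM in wild type (log2 change -2.70 ± 0.17). The abdominal gene abd-A had 0.382 and 0.327 CPM in mislocalized embryos, against 13.8 and 14.1 CPM in wild type (log2 change -5.26 ± 0.22). The most anterior gene, lab, was not called (log2 change 0.37 ± 0.28).

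Along the dorsoventral axis, 9 of 12 mesoderm, 9 of 10 neurogenic ectoderm, 14 of 15 dorsal ectoderm and 4 of 4 gut genes were lower. Their median log2 changes were -2.76, -2.26, -3.38 and -4.61. The mesoderm determinant twi had 14.8 and 15.2 CPM in mislocalized embryos, against 284 and 269 CPM in wild type (log2 change -4.20 ± 0.07). Its partner sna had 22.9 and 26.8 CPM in mislocalized embryos, against 174 and 175 CPM in wild type (log2 change -2.81 ± 0.07). The groups were far apart in both, and the FGF ligand gene ths and the FGF receptor gene htl fell further than sna, with log2 changes of -5.81 ± 0.20 and -4.23 ± 0.11. In the ectoderm, the BMP antagonist gene sog had 26.7 and 26.9 CPM in mislocalized embryos, against 347 and 329.6 CPM in wild type (log2 change -3.66 ± 0.06). The BMP ligand gene dpp had 4.91 and 4.84 CPM in mislocalized embryos, against 66.2 and 64.2 CPM in wild type (log2 change -3.74 ± 0.10). The protease gene tld, whose product frees the ligand from its antagonist, had 24.3 and 26.1 CPM in mislocalized embryos, against 342 and 328 CPM in wild type (log2 change -3.73 ± 0.07). In all 3 both mislocalized libraries lay well below both wild type libraries. C15, a homeobox gene of the amnioserosa, had 0 counts in mislocalized embryos, against 3.46 and 2.66 CPM in wild type, and was at least 37.4-fold lower. The hindgut gene byn had 3.33 and 3.43 CPM in mislocalized embryos, against 92.2 and 93 CPM in wild type (log2 change -4.77 ± 0.11).

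A few mesoderm genes were higher. The gene fog, whose secreted product triggers invagination, had 138 and 143 CPM in mislocalized embryos, against 47.7 and 55.9 CPM in wild type (log2 change 1.44 ± 0.09). It stood at 131 and 128 CPM in mislocalized embryos and 131 and 123 CPM in wild type at 1 to 1.5 h, so its level at 2.5 to 3 h in mislocalized embryos was near the earlier one. The transcription factor genes zfh1 and Mef2 were higher by 0.35 ± 0.09 and 0.42 ± 0.11 on the log2 scale, but zfh1 was not called with RLE size factors (0.19) or DESeq2 (0.19), nor Mef2 with DESeq2 (0.26). Among targets and modulators of Notch signalling, the E(spl) and Bearded families, 14 of 15 genes could be tested and 11 were lower, with a median of -1.54. Tom, a Bearded family gene, had 53.8 and 53.7 CPM in mislocalized embryos, against 451 and 427 CPM in wild type (log2 change -3.03 ± 0.05). Brd had 5.73 and 6.91 CPM in mislocalized embryos, against 41.2 and 49.2 CPM in wild type (log2 change -2.84 ± 0.13). E(spl)m8-HLH was higher, with 7.75 and 8.93 CPM in mislocalized embryos, against 5.34 and 5.58 CPM in wild type (log2 change 0.61 ± 0.16), but not with DESeq2 (0.45, not called).

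Of 7 genes that count X chromosomes or are switched by the count, 6 were lower and 1 higher. Sxl, the sex switch gene, had 26 and 26.9 CPM in mislocalized embryos, against 387 and 395 CPM in wild type (log2 change -3.88 ± 0.09). The dosage compensation gene msl-2, which Sxl represses in females, had 13.3 and 14.2 CPM in mislocalized embryos, against 163 and 178 CPM in wild type (log2 change -3.63 ± 0.08). The X-linked counting gene sisA had 28.5 and 28.5 CPM in mislocalized embryos, against 90.1 and 86.2 CPM in wild type (log2 change -1.63 ± 0.08). All 3 separated the groups, while the counting gene sc had 9.77 and 10.6 CPM in mislocalized embryos, against 3.68 and 4.97 CPM in wild type (log2 change 1.23 ± 0.16) and so ran the other way. The order was the opposite at 1 to 1.5 h, with 1.6 and 1.48 CPM of sc in mislocalized embryos, against 12.3 and 11.1 CPM in wild type. Of 6 regulators of genome activation 1 was higher and 2 lower, against 40.8% and 41.1% of all genes tested. The pioneer factor gene vfl, also called zelda, had 483 and 478 CPM in mislocalized embryos, against 1091 and 1093 CPM in wild type (log2 change -1.19 ± 0.09), and Trl, the GAGA factor gene, fell by 0.90 on the log2 scale.

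The lowered zygotic genes still increased between the windows in mislocalized embryos. From 1 to 1.5 h to 2.5 to 3 h, 2758 of 9156 genes (30.1%) increased in mislocalized embryos and 3947 (43.1%) in wild type. Decreases were called for 33.2% of genes in mislocalized embryos and 41.8% in wild type. All 5 cellularization, 6 of 7 gap, 9 of 9 pair-rule and 8 of 8 segment polarity genes increased in mislocalized embryos, with median log2 changes over time of 3.89, 2.58, 2.47 and 2.86. The medians in wild type were 2.99, 3.21, 3.25 and 3.23. In the earlier window slam stood at 389.6 and 396 CPM in mislocalized embryos and 757 and 765 CPM in wild type, and eve at 0.961 and 2.2 CPM in mislocalized embryos and 19.7 and 20.5 CPM in wild type. Of 2169 genes that increased at least 2-fold in wild type (23.7% of those tested), 1211 increased and 59 decreased in mislocalized embryos, where their median was 1.54, against 3.32 in wild type. Of 2463 that decreased at least 2-fold in wild type (26.9%), 2065 decreased and 42 increased in mislocalized embryos, where their median was -1.13, against -1.91 in wild type. Both sets were chosen by their change in wild type, which favours larger values there. A smaller median in mislocalized embryos is therefore partly built in.

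Mislocalized embryos at 2.5 to 3 h were also set against wild type embryos at 1 to 1.5 h, a contrast added after the values were seen. It called 6853 of 9156 genes (74.8%), 3631 (39.7%) higher and 3222 (35.2%) lower in the mislocalized embryos. Of the 9 pair-rule genes 1 was higher and 7 were lower, with a median of -0.73, and of the 7 gap genes 1 was higher and 5 were lower, with a median of -0.83. Of the 5 cellularization genes 3 were higher and 2 lower, with a median of 0.24, and of the 8 segment polarity genes 6 were higher and 2 lower, with a median of 0.71. The summed level of the 9 pair-rule genes was 87.6 and 92.9 CPM in mislocalized embryos at 2.5 to 3 h. It was 154 and 158 CPM in wild type at 1 to 1.5 h and 1396 and 1445 CPM in wild type at 2.5 to 3 h.

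**Figure D3:**
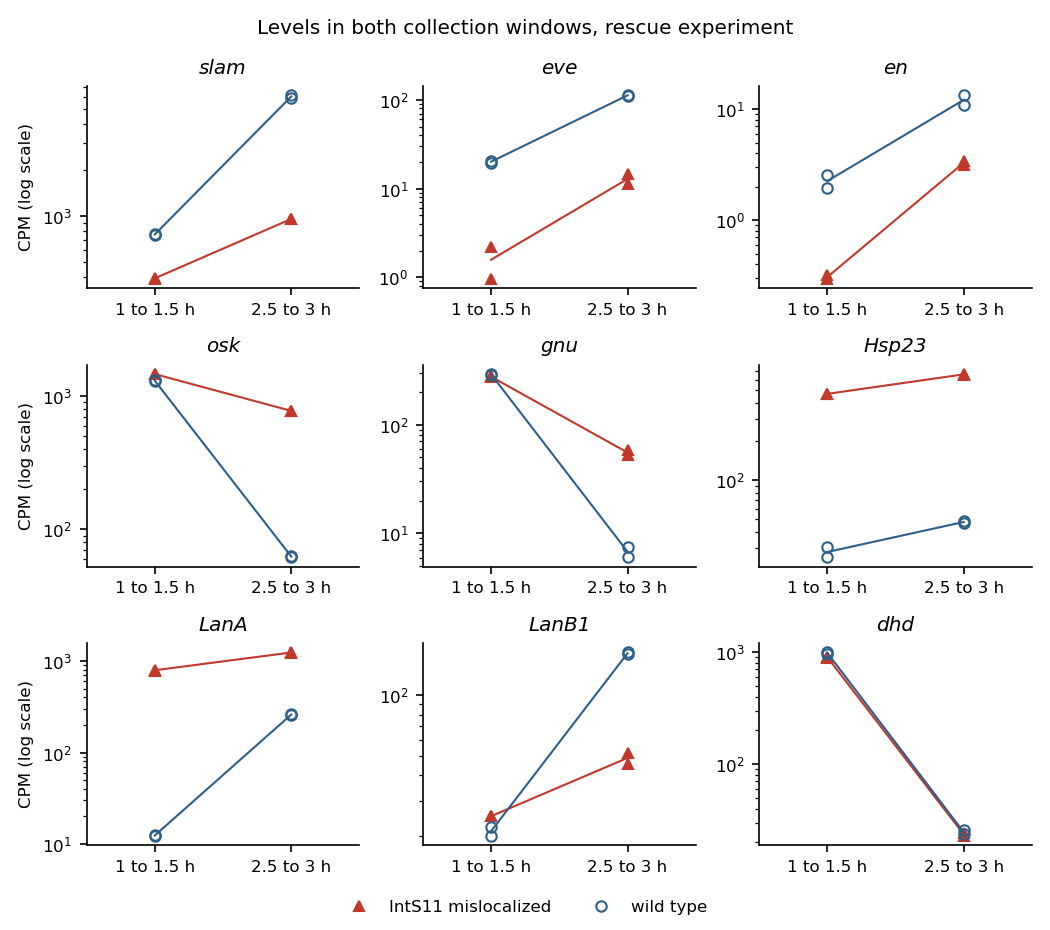
CPM of 9 genes in both windows on log axes; filled triangles are mislocalized libraries, open circles wild type, and lines join the means of 2 libraries. The zygotic genes slam, eve and en increase in both lines but stay lower in mislocalized embryos, osk and gnu decrease less in mislocalized embryos, dhd decreases in both, and LanA and Hsp23 are far above wild type in mislocalized embryos at 1 to 1.5 h already.

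Maternal RNAs that are cleared at the maternal-to-zygotic transition were mostly higher in mislocalized embryos. Of 14 such RNAs 12 were higher and 0 lower, with a median log2 change of 1.4. The gene gnu, a regulator of the early nuclear divisions, had 52.7 and 58 CPM in mislocalized embryos, against 6.01 and 7.56 CPM in wild type (log2 change 3.02 ± 0.11). The Polo inhibitor gene mtrm had 98.5 and 98.4 CPM in mislocalized embryos, against 15.9 and 17 CPM in wild type (log2 change 2.58 ± 0.08). The phosphatase gene stg, which triggers mitosis, had 312 and 305 CPM in mislocalized embryos, against 76.3 and 83.3 CPM in wild type (log2 change 1.95 ± 0.08). In all 3 the libraries of the groups were far apart, as they were for twe, the paralog of stg (log2 change 1.80 ± 0.06). The list summed to 7999.9 and 8272 CPM in mislocalized embryos, against 2770.1 and 2839 CPM in wild type. The earlier sums, at 1 to 1.5 h, were 13581 and 13286 CPM in mislocalized embryos, against 13360.3 and 13376 CPM in wild type. Over time all 14 decreased in wild type, and in mislocalized embryos 9 decreased and 1 increased.

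Clearance differed from RNA to RNA. The thioredoxin gene dhd had 24.3 and 22.8 CPM in mislocalized embryos, against 25.6 and 23.6 CPM in wild type (log2 change -0.06 ± 0.18), and was not called (adjusted p = 0.778, edgeR). Its levels at 1 to 1.5 h were 892 and 904 CPM in mislocalized embryos and 971 and 994 CPM in wild type, far above those at 2.5 to 3 h in both lines. Of 6 egg activation genes 5 were higher and 0 lower, with cort, the meiotic activator of protein degradation, at 2.07 and 1.69 CPM in mislocalized embryos and 1.8 and 1.97 CPM in wild type and not called. Of 13 maternal axis determinants 9 were higher and 0 lower. The gene swa, which localizes bcd RNA, had 601 and 629 CPM in mislocalized embryos, against 60.7 and 58.9 CPM in wild type (log2 change 3.36 ± 0.06), and was little below its level at 1 to 1.5 h, when it had 769.7 and 763 CPM in mislocalized embryos and 599.8 and 622 CPM in wild type. The gene exu, which acts on the same RNA, had 39.2 and 39.2 CPM in mislocalized embryos, against 17.6 and 18.4 CPM in wild type (log2 change 1.12 ± 0.12), after 918 and 933 CPM in mislocalized embryos and 769 and 784 CPM in wild type at 1 to 1.5 h. The anterior determinant bcd itself had 283 and 299 CPM in mislocalized embryos, against 35.4 and 43 CPM in wild type (log2 change 2.89 ± 0.07).

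The Toll pathway patterns the dorsoventral axis. Its ligand gene spz had 50.2 and 48.4 CPM in mislocalized embryos, against 7.29 and 7.01 CPM in wild type (log2 change 2.78 ± 0.11). The kinase gene pll had 102 and 106 CPM in mislocalized embryos, against 39.3 and 35.4 CPM in wild type (log2 change 1.48 ± 0.07). The transcription factor gene dl had 32.4 and 31.1 CPM in mislocalized embryos, against 5.19 and 5.24 CPM in wild type (log2 change 2.60 ± 0.11). These 3 were higher, but the receptor gene Tl and the inhibitor gene cact were not called (0.00 ± 0.05 and -0.05 ± 0.04 on the log2 scale). With RLE size factors both were called lower, at -0.16 for Tl and -0.21 for cact.

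Germ plasm RNAs, which specify the germ line at the posterior pole, were higher for 8 of 9 genes and lower for 1. The organizer gene osk had 774 and 777 CPM in mislocalized embryos, against 61.6 and 63.6 CPM in wild type (log2 change 3.63 ± 0.08). The gene gcl, needed for pole cell formation, had 334 and 358 CPM in mislocalized embryos, against 50.8 and 54.1 CPM in wild type (log2 change 2.72 ± 0.06). The translational repressor gene nos had 138 and 135 CPM in mislocalized embryos, against 48.1 and 51.9 CPM in wild type (log2 change 1.44 ± 0.06). The lower gene was Tdrd3, of the Tudor domain family, which had 12 and 11.3 CPM in mislocalized embryos, against 104 and 101 CPM in wild type (log2 change -3.14 ± 0.08). Earlier, at 1 to 1.5 h, Tdrd3 had 92.7 and 90.6 CPM in mislocalized embryos and 99.4 and 106 CPM in wild type, so the groups had been close in the earlier window. The ovary markers moved with these RNAs in the rescue set. In the first experiment these markers stood at 2.45 and 2.37 CPM in mislocalized embryos and 2.79 and 2.18 CPM in wild type. Of the 9 germ plasm genes 6 were higher and 1 lower there, with a median log2 change of 0.59, against 1.13 in the rescue set. The medians of all genes in these fits were -0.38 and 0.00. In the first experiment osk was higher by 4.03 ± 0.10, gcl by 2.35 ± 0.08 and the maternal gene gnu by 2.56 ± 0.18 on the log2 scale. The part of ovary RNA in these levels was not tested.

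Of 10 genes of the machinery that degrades maternal RNA 7 were higher and 0 lower. The RNA-binding protein gene smg, which recruits deadenylases, had 2255 and 2309 CPM in mislocalized embryos, against 523 and 538 CPM in wild type (log2 change 2.10 ± 0.07). The deadenylase gene twin had 346 and 355 CPM in mislocalized embryos, against 103 and 106 CPM in wild type (log2 change 1.75 ± 0.05). The translational repressor gene cup had 317 and 343 CPM in mislocalized embryos, against 64 and 69.6 CPM in wild type (log2 change 2.30 ± 0.06). The libraries of the groups were far apart in these genes, whereas the RNA-binding protein gene pum and the scaffold gene Not1 were not called (0.00 ± 0.06 and 0.03 ± 0.05 on the log2 scale) and stood at -0.16 and -0.14 with RLE size factors. Of 11 genes of the piRNA pathway, which silences transposons, 8 were higher and 2 lower. The Tudor gene krimp had 189 and 201 CPM in mislocalized embryos, against 17.4 and 16.1 CPM in wild type (log2 change 3.54 ± 0.07), and the helicase gene armi rose by 2.26 ± 0.07. The lower genes were cuff, which had 0.491 and 0.98 CPM in mislocalized embryos, against 5.41 and 4.63 CPM in wild type, and AGO3 (log2 change -0.48 ± 0.14), which was not called without wild type replicate 2 (-0.35) or without mislocalized replicate 2 (-0.43).

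Of 12 enzymes of glycolysis, whose RNAs are supplied by the mother, 8 were higher and 3 lower, with a median log2 change of 1.24. Eno, the enolase gene, had 819.5 and 845 CPM in mislocalized embryos, against 144 and 139 CPM in wild type (log2 change 2.56 ± 0.06). The gene Gapdh1 had 354 and 354 CPM in mislocalized embryos, against 70.5 and 63.6 CPM in wild type (log2 change 2.40 ± 0.06). Pgi, the phosphoglucose isomerase gene, had 12.7 and 13.7 CPM in mislocalized embryos, against 52 and 50.9 CPM in wild type (log2 change -1.96 ± 0.08). Pgi was lower while its neighbours in the pathway Hex-A and Pfk were higher, by 2.54 ± 0.14 and 1.98 ± 0.06 on the log2 scale. Over the 12 enzymes the sum was 1903 and 1942 CPM in mislocalized embryos, against 667 and 646 CPM in wild type. Of 4 lipid droplet genes 3 were higher, Jabba among them, and the perilipin gene Lsd-1 was lower (log2 change -1.07 ± 0.19).

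**Figure D4:**
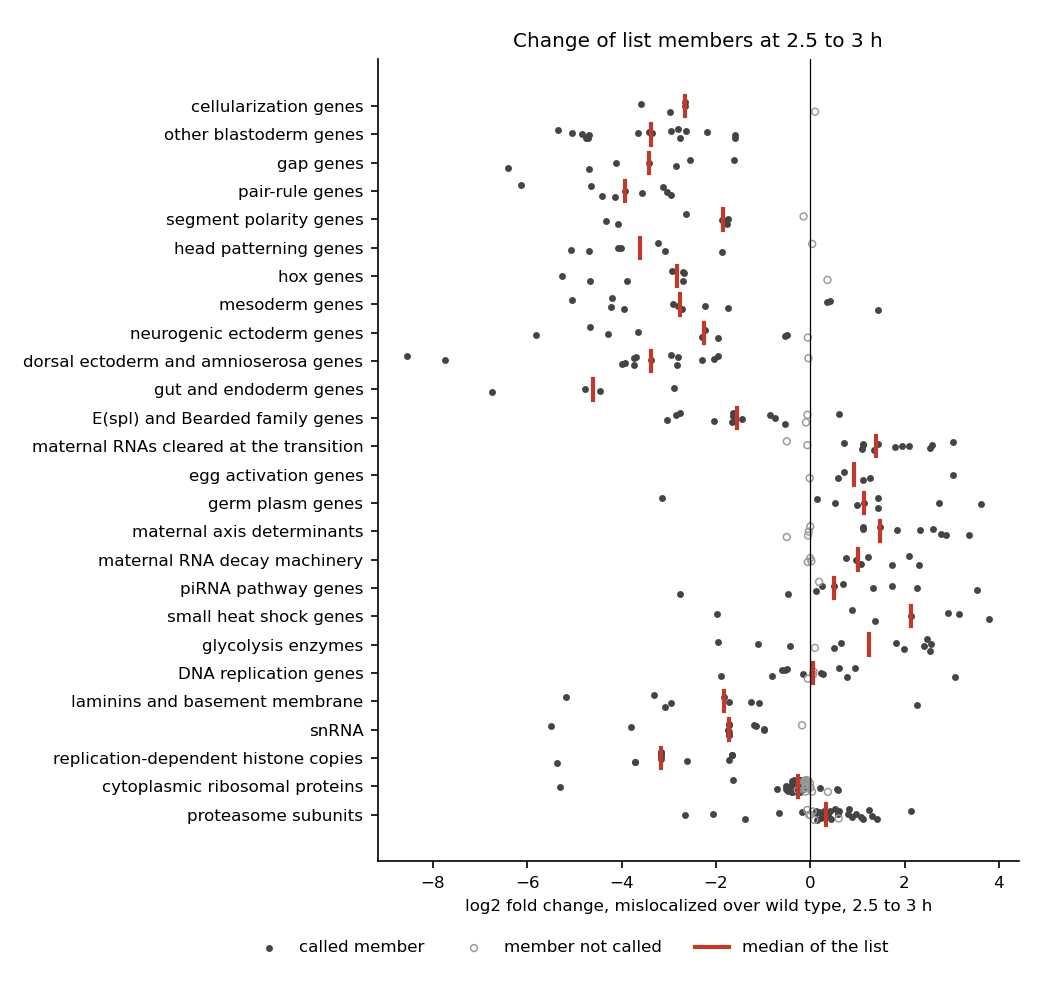
log2 change of each tested member of 26 gene lists at 2.5 to 3 h, mislocalized over wild type; filled points were called, open points were not, and the red bar is the list median. Zygotic lists have medians between -4.61 and -1.54, the maternal lists have medians above 0, and laminins, snRNAs and histone copies have medians below 0, where copies with equal counts are separate points.

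Of 8 genes that slow the cell cycle at the blastoderm 2 were higher and 5 lower, or 3 lower without wild type replicate 1, wild type replicate 2 or mislocalized replicate 2. The zygotic inhibitor gene trbl had 65 and 67.4 CPM in mislocalized embryos, against 637 and 635 CPM in wild type (log2 change -3.26 ± 0.06). The mitotic inhibitor gene Z600 had 16.5 and 15.5 CPM in mislocalized embryos, against 415 and 453 CPM in wild type (log2 change -4.76 ± 0.08). The maternal checkpoint kinase gene grp had 344 and 346 CPM in mislocalized embryos, against 132 and 135 CPM in wild type (log2 change 1.37 ± 0.05). Both zygotic inhibitor genes were lower and the maternal kinase gene was higher. Of 15 DNA replication genes 6 were higher and 6 lower, near the shares of all genes tested (40.8% higher and 41.1% lower). Orc1, a subunit of the origin recognition complex, had 861 and 893 CPM in mislocalized embryos, against 105 and 102 CPM in wild type (log2 change 3.08 ± 0.06), whereas its partner Orc2 had 5.4 and 5.28 CPM in mislocalized embryos, against 20.4 and 19.1 CPM in wild type (log2 change -1.89 ± 0.12). The embryonic linker histone gene BigH1 had 209.99 and 206 CPM in mislocalized embryos, against 29 and 31.7 CPM in wild type (log2 change 2.77 ± 0.07). Slbp, which binds histone mRNA ends, had 31.5 and 32.6 CPM in mislocalized embryos, against 231 and 217 CPM in wild type (log2 change -2.80 ± 0.06). Of the 9 genes of histone variants and histone mRNA processing 4 were higher and 5 lower, against the same shares of all genes tested.

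Of 111 replication-dependent histone copies 14 could be tested, and 14 were lower, with a median log2 change of -3.16. Of the 14, 13 were His1 copies and 1 a His2B copy. Copies with equal counts make them 6 distinct values, with a median of -2.88, so the count and median rest on shared reads. Small nuclear RNAs, the first known substrates of Integrator, were mostly lower where they could be tested. Of 32 genes 13 could be tested, 12 were lower and 0 higher, with a median of -1.71. The tested genes were those of U1, U2, U11, U12 and 7SK. Of the 32, 17 had 0 counts in mislocalized and 18 in wild type libraries, among them all genes of U4, U5, U6 and U7. How well these libraries capture mature small nuclear RNAs was not tested. Counting copies with equal counts once leaves 10 values, of which 9 were lower, with a median of -1.72. The U1 copies had few counts, with 7 in mislocalized libraries against 18 in wild type for each of 3 copies that cannot be told apart. The minor spliceosome RNA snRNA:U11 had 40.5 and 43.7 CPM in mislocalized embryos, against 143 and 139 CPM in wild type (log2 change -1.75 ± 0.14). Its partner snRNA:U12:73B had 44.6 and 42.8 CPM in mislocalized embryos, against 84.9 and 113 CPM in wild type (log2 change -1.18 ± 0.16). The copy snRNA:U2:34ABa had 3 and 3.32 CPM in mislocalized embryos, against 128 and 159 CPM in wild type (log2 change -5.50 ± 0.24). This fall exceeded that of the copies snRNA:U2:34ABb and snRNA:U2:34ABc (-0.97 each), which carried equal counts and so cannot be told apart, and snRNA:U2:38ABa and snRNA:U2:38ABb had nearly equal counts. The gene snRNA:7SK, transcribed by RNA polymerase III, had 2786 and 2887 CPM in mislocalized embryos, against 3292 and 3099 CPM in wild type (log2 change -0.17 ± 0.08), and was not called (adjusted p = 0.0501, edgeR). Of 288 snoRNA and scaRNA genes 20 could be tested, and 11 were lower and 0 higher.

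Of 7 small heat shock genes 6 were higher and 1 lower, with a median log2 change of 2.15. Hsp23 had 668 and 655 CPM in mislocalized embryos, against 48.4 and 46.6 CPM in wild type (log2 change 3.80 ± 0.07). Hsp22 had 209 and 193 CPM in mislocalized embryos, against 22.8 and 22.3 CPM in wild type (log2 change 3.16 ± 0.07). Hsp27 had 157 and 165 CPM in mislocalized embryos, against 20.3 and 22.3 CPM in wild type (log2 change 2.92 ± 0.10). These small chaperone genes separated the groups widely, but in different windows. At 1 to 1.5 h Hsp23 was already higher in mislocalized embryos (log2 change 4.06 ± 0.07), and Hsp27 was not called (log2 change -0.01 ± 0.07). The lower gene, Hsp67Bc, was not called without wild type replicate 2 (-1.2, against -1.98 with all libraries). Of 9 other heat shock genes 4 were higher and 2 lower, Hsp70 copies among them that share sequence and are uncertain. Of 11 apoptosis and p53 genes 3 were higher and 4 lower. The counts of both lists are to be read beside the shares of all genes tested, 40.8% higher and 41.1% lower. The death activator gene skl had 23.8 and 22.6 CPM in mislocalized embryos, against 2.48 and 3.54 CPM in wild type (log2 change 2.93 ± 0.16), and th, the inhibitor of apoptosis, fell by 1.2 on the log2 scale.

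Of 9 genes of laminins and basement membrane 1 was higher and 8 lower. LanA, the gene of a laminin alpha chain, had 1244 and 1237 CPM in mislocalized embryos, against 257 and 263 CPM in wild type (log2 change 2.26 ± 0.05). LanB1, of the beta chain, had 45.8 and 51.9 CPM in mislocalized embryos, against 163 and 159.99 CPM in wild type (log2 change -1.73 ± 0.06). LanB2, of the gamma chain, had 20.1 and 21.5 CPM in mislocalized embryos, against 165 and 159 CPM in wild type (log2 change -2.96 ± 0.07). Genes for chains of the same trimer moved in opposite directions. LanA already differed at 1 to 1.5 h, with 781 and 806 CPM in mislocalized embryos, against 12.6 and 12.2 CPM in wild type (log2 change 6.0 ± 0.06). The linker gene Ndg had 0.382 and 0.871 CPM in mislocalized embryos, against 22.5 and 23.4 CPM in wild type (log2 change -5.18 ± 0.21). LanA was not alone in its earlier rise. Of the 9 genes 5 were higher and 2 lower at 1 to 1.5 h, with a median log2 change of 1.5. LanA made up most of the level, since the 9 genes summed to 825 and 855 CPM in mislocalized embryos, against 58.3 and 56.4 CPM in wild type. In the test between windows all 9 had a smaller log2 value in the later window, with a median difference of -4.55.

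Of 7 genes known from earlier results to be raised in younger mislocalized embryos of the first experiment 5 were higher and 1 lower here. The list was chosen on mislocalized embryos, so its direction is no independent evidence. The autophagy gene Atg18b had 154 and 159 CPM in mislocalized embryos, against 11.5 and 10.6 CPM in wild type (log2 change 3.82 ± 0.07). The lower gene, mfas, a fasciclin gene, had 27.3 and 24.9 CPM in mislocalized embryos, against 57.2 and 54.9 CPM in wild type (log2 change -1.10 ± 0.07). At 1 to 1.5 h mfas had 79.7 and 80.6 CPM in mislocalized embryos, against 4.96 and 4.99 CPM in wild type, and thus the opposite order. Of 9 genes of ecdysone synthesis and response 4 were higher, or 1 with DESeq2, and 4 lower. The shares over all genes tested were 40.8% higher and 41.1% lower. The steroid synthesis genes phm and dib had log2 changes of -4.94 ± 0.12 and -3.37 ± 0.11.

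Large housekeeping families changed by smaller amounts. Over all genes tested 40.8% were higher and 41.1% lower. Of 92 cytoplasmic ribosomal protein genes 88 could be tested, with 3 higher and 69 lower and a median log2 change of -0.26. Of 73 tested mitochondrial ribosomal protein genes 31 were higher and 17 lower, with a median of 0.11 that was -0.05 with RLE size factors, when 18 were higher. Of 48 proteasome genes 36 could be tested, with 25 higher and 5 lower and a median of 0.33.

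Genes were also sorted by their response to alpha-amanitin, an inhibitor of RNA polymerase II, in other libraries of the series at 2.5 to 3 h, where 7638 of 8517 genes (89.7%) were called. At least 2-fold, 26.3% were raised and 28.3% lowered by amanitin. Of 2308 tested genes that amanitin lowered at least 2-fold, 229 were higher and 1720 lower in mislocalized embryos, with a median log2 change of -1.49. Of 2237 genes that amanitin raised at least 2-fold relative to the rest, 1522 were higher and 470 lower, with a median of 0.99. The 3863 other genes had a median of 0.08, with 1699 higher and 1328 lower. With a limit of 4-fold the medians were -2.26 for lowered and 1.3 for raised genes.

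At 1 to 1.5 h, in other libraries of the same lines, 4889 of 9156 genes (53.4%) were called, 3175 (34.7%) higher and 1714 (18.7%) lower in mislocalized embryos. The split depended on scaling, with 64.9% of calls higher with TMM, 47.7% with RLE size factors, 49.4% with total counts and 47.2% with DESeq2. Zygotic genes were already lower: 9 of 9 pair-rule genes, with a median of -3.59, and 5 of 5 cellularization genes, with a median of -3.52. Of the 14 cleared maternal RNAs 5 were higher and 2 lower, with a median of 0.07. Of the 10 distinct values of small nuclear RNAs 9 were lower at that window, with a median of -1.65.

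A test of whether the effect differed between the windows called 5934 genes (64.8%), 2736 (29.9%) with a larger and 3198 (34.9%) with a smaller log2 value at 2.5 to 3 h. Maternal RNAs gained a difference: osk by 3.46 ± 0.10, gnu by 3.09 ± 0.13 and smg by 2.02 ± 0.10 on the log2 scale. Of the 14 cleared maternal RNAs 12 had a larger value at 2.5 to 3 h and 0 a smaller one. Among zygotic genes slam had a difference of -1.70 ± 0.07 and opa of -2.37 ± 0.23, whereas 4 of 5 cellularization genes had a larger value at 2.5 to 3 h. The difference for LanA was -3.75 ± 0.08. All 13 ovary markers had a larger value at 2.5 to 3 h, which is partly built in, since they passed the count filter through libraries where they are high.

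In the first experiment 7331 of 8804 genes (83.3%) were called, 2651 (30.1%) higher and 4680 (53.2%) lower in mislocalized embryos. Of those calls 36.2% were higher with TMM, 49.4% with total counts and 47.7% in the joint fit, and the median of all genes was -0.38, -0.02 and -0.07 in these fits. Over 8598 genes tested in both experiments the log2 changes correlated at 0.878 (Pearson) and 0.889 (Spearman), given as a description across genes, which are not independent. At least 2-fold, 15.9% of the genes tested in the first experiment were higher and 32.7% lower. Among genes called in both, 5663 had the same direction and 472 the opposite. Of 1992 genes at least 2-fold lower in the rescue set 94.6% were so in the first experiment, and of 2689 in the first experiment 70.1% were so in the rescue set. Of 1766 genes at least 2-fold higher in the rescue set 65.2% were so in the first experiment, and of 1390 in the first experiment 82.8% were so in the rescue set. These shares depend on the scaling. In the joint fit, added after the values were seen, the shares of lower genes were 87.8% of 2323 in the rescue set and 77.2% of 2640 in the first experiment. Those of higher genes were 77.8% of 1799 in the rescue set and 72.4% of 1933 in the first experiment, and 6043 genes were called in the same and 326 in opposite directions.

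**Figure D5:**
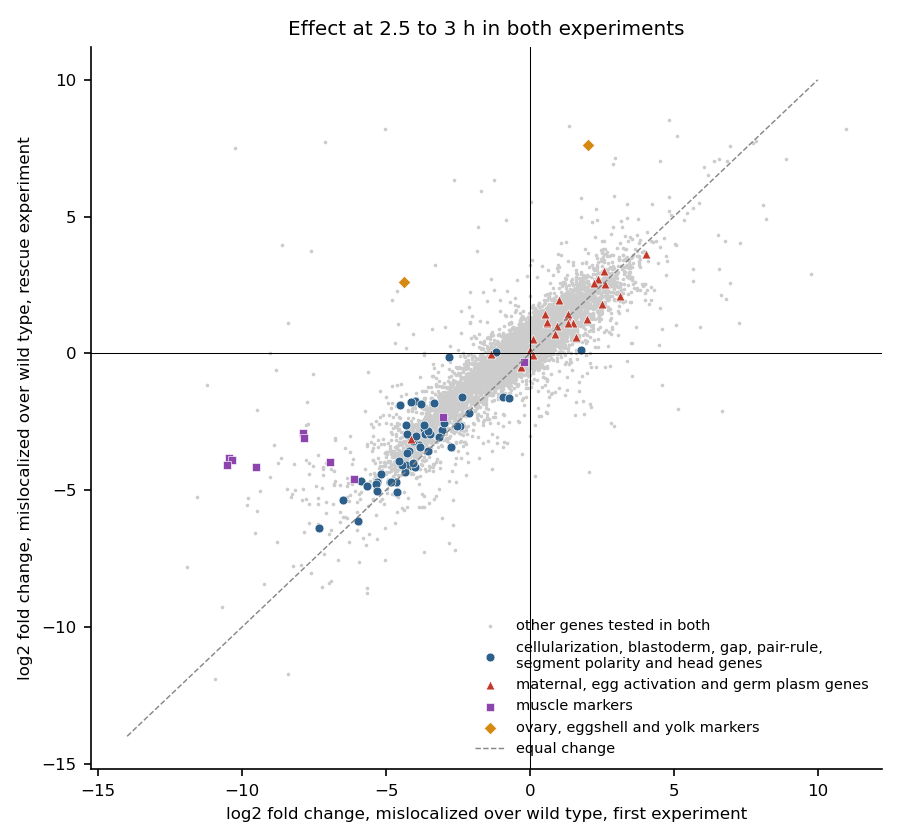
log2 change at 2.5 to 3 h, mislocalized over wild type, in the rescue set (vertical axis) and the first experiment (horizontal axis) for genes tested in both; fitted values of genes with 0 counts in a group depend on the prior count. Zygotic genes lie at lower left and most maternal genes at upper right near the dashed line of equal change, and most muscle markers lie above that line.

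The effect differed between the experiments for 3670 of 9119 genes (40.2%) in a joint test, 1914 (21%) with a larger and 1756 (19.3%) with a smaller log2 value in the rescue set. Of the 8 tested segment polarity genes 6 had a larger and 0 a smaller value. For en the level in mislocalized embryos was 3.44 and 3.16 CPM in the rescue set and 1.88 and 1.84 CPM in the first experiment, against 10.9 and 13.3 CPM and 40.9 and 44.3 CPM in the wild types of these sets. E(spl) and Bearded genes had a larger value in 13 and a smaller in 0 cases, and DNA replication genes in 11 and 1. Orc2 had 5.39 and 5.09 CPM in mislocalized embryos and 60.7 and 56.5 CPM in wild type of the first experiment, so its mislocalized level was alike in both sets and its wild type level was not. Among the 7 gap genes 0 had a larger and 1 a smaller value, hb, at -1.27 ± 0.13. Muscle markers had a larger value in 7 of 10 and a smaller in 1, and muscle actin Act57B averaged 11.3 CPM in mislocalized embryos and 84.1 CPM in wild type of the rescue set, against 0.395 CPM in mislocalized embryos and 96.4 CPM in wild type of the first experiment.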

How the data were processed

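Per the submitters' processing notes, the authors used Trimmomatic 0.39, STAR 2.7.10a, RSEM 1.3.1 and DESeq2 1.40.2 with genome build dm6; the roles of the tools, the annotation and whether counting used strand are not given in the sources used here. RSEM estimates make up the deposited expected counts per gene, not normalized by the authors, which were rounded to whole numbers for testing here. The TPM values, which the authors deposited beside the counts, served only to select genes named for the size of their change and are printed for IntS11 alone.

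Genes passing filterByExpr were fitted with edgeR 4.0.16 (R 4.3.3; TMM scaling, robust quasi-likelihood) on all 16 libraries of the rescue experiment, 1 mean per group, and p-values were adjusted by the Benjamini-Hochberg method over all genes tested. The standard error of a log2 change is its size over the square root of the F statistic. The experiments for comparison had fits of their own, and a joint fit of 8 libraries tested the difference between experiments. The code was tested on simulated data. Fits were repeated with RLE scaling, with library totals alone, without the filter, with DESeq2 1.42.0, with a replicate block, on the 4 libraries compared alone, and with each library left out.

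IntS11 and IntS9 were named, as were the 12 genes that rose most and the 12 that fell most with a mean TPM of at least 5 in a group and separate libraries, members of gene lists of 12 or fewer, the 6 largest differences each way between windows and between experiments, and in longer lists the 4 most abundant, the 4 most changed and those against the majority. TH1, Cdk9, SNCF, bou, dpp, twe, dhd, exu and pll fall outside this rule and were named after their values were seen. The members and lists were chosen with earlier results of these data known. The ± values of log2 changes include the spread between libraries, whereas the floors behind folds given as at least cover counting error only.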

Additional observations from a re-analysis of the deposited data

Results flagged for a closer look

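The effect of mislocalization differed between the windows for 5934 genes and between the experiments for 3670 genes, by tests of the difference itself (edgeR, Benjamini-Hochberg). The genes below had the largest such differences under the naming rule; adjusted p-values are from the same tests.

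Between windows, 6 genes, Osiris genes among them, had smaller values at 2.5 to 3 h, and each had 0 counts in wild type at 1 to 1.5 h. The adjusted p was 0.000186 for Osi6, 4.78e-08 for Osi7, 5.02e-11 for mey, 1.32e-07 for Spn43Aa, 2.8e-08 for verm and 2.48e-05 for Neurochondrin. The gene mey averaged 1.25 CPM in mislocalized embryos, against 25.4 CPM in wild type at 2.5 to 3 h, and verm, a chitin deacetylase gene, 1.2 CPM in mislocalized embryos, against 20.7 CPM in wild type. Genes of ovary and yolk had larger values at 2.5 to 3 h, with an adjusted p of 5.57e-07 for Cp38, 0.000166 for Cp36, 0.000327 for Vm26Aa, 0.0016 for Cp19, 9.14e-06 for Yp2 and 0.00826 for Vm34Ca. At 1 to 1.5 h each of these had at most 6 counts over 2 libraries in either group.

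Between experiments, smaller values in the rescue set were found for Osi6 (adjusted p = 0.00047), Osi7 (3.01e-05), ect (0.000136) and spz6 (0.0132), by edgeR with Benjamini-Hochberg adjustment, and for mey and Spn43Aa, with log2 differences of -6.75 and -5.72. In wild type of the first experiment these genes averaged at most 0.371 CPM. Larger values in the rescue set were found for Cp15 (adjusted p = 0.0237), Cp18 (2.54e-06), Mlp60A (0.000912), Dh44-R2 (0.000297) and Mlc1 (0.00669), by the same test, and for Act57B, with a log2 difference of 4.64. The muscle genes Mlp60A and Mlc1 had 0 counts in mislocalized embryos of the first experiment. Dh44-R2, a neuropeptide receptor gene, averaged 0.927 CPM in mislocalized embryos, against 35.9 CPM in wild type of the rescue set, and had 0 counts in mislocalized embryos, against 28.3 CPM in wild type of the first experiment.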

How the results depend on the processing

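Under 20 alternatives, the amanitin classes at 4-fold among them, 180 recomputed counts of whole comparisons kept their size within the limits set and 1 did not. This was the number of genes called higher at 1 to 1.5 h, 1885 with DESeq2 and 3175 in edgeR's fit. To the amanitin medians these limits were not applied. They were -2.2585 for lowered and 1.2976 for raised genes at 4-fold, against -1.49 and 0.99 at 2-fold. A stricter class holds fewer genes by construction. For the DESeq2 count the cause was not tested. With only the 4 libraries of a comparison, 50.5% of calls were higher at 1 to 1.5 h and 48.2% in the first experiment. Leaving out 1 library at a time, which lets the lone library of a group borrow the spread of the others, gave 7169 to 7218 calls at 2.5 to 3 h, 3864 to 4308 at 1 to 1.5 h, 5479 to 5626 for the difference between windows, 7034 to 7136 in the first experiment and 2765 to 3968 for the difference between experiments. Same-numbered replicates did not deviate together (correlation -0.015 at 2.5 to 3 h), so the numbers were not taken as pairs; a fit with the replicate number as a block called 7519 genes at 2.5 to 3 h and 4277 for the difference between experiments. Of 370 single genes 10 reversed sign and were called in the reported or the alternative fit, all with a log2 change of at most 0.16 in the fit reported. Sign changes without a call in either fit were not counted. The values with RLE size factors and with DESeq2 were -0.0033 and -0.0032 for CG1109, -0.1505 and -0.1505 for Cpsf160, -0.1334 and -0.1333 for Nc, -0.1358 and -0.1358 for Not1, -0.0321 and -0.0318 for Sym, -0.1604 and -0.1604 for Tl, -0.0251 and -0.0250 for aub, -0.1601 and -0.1602 for pum, -0.0364 and -0.0364 for tej, and -0.1389 for su(f) with RLE. Both methods set the median of all genes 0.16 lower. Of 48 lists 5 moved a count by over 1.5 times under an alternative. With 2 libraries per group, small changes and genes of few counts are the least certain.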

Other observations

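The following values were looked for after results of these data had been seen. The X chromosome and the autosomes are described side by side, with no test between them. Of 1569 tested X-linked genes 48.1% were higher and 34.2% lower in mislocalized embryos, with a median log2 change of 0.21. Of 7498 tested autosomal genes 39.5% were higher and 42.5% lower, with a median of -0.04. The medians in the first experiment were -0.08 on the X chromosome and -0.43 on the autosomes. Among genes that amanitin raised at least 2-fold the medians were 1.03 on the X chromosome and 0.96 on the autosomes, among those it lowered -1.51 and -1.48, and among the other genes 0.19 and 0.06.

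By number of introns (none, 1, 2 to 4, 5 to 9, and 10 or more), the median log2 change of all protein-coding genes tested was -0.09, -0.03, 0.02, 0.10 and -0.06, with no steady trend. Among genes that amanitin lowered it was -1.61, -1.28, -1.28, -1.63 and -1.49, again with none. Among genes that amanitin raised it was 0.68, 0.65, 0.92, 1.13 and 1.41. No test was made, and these classes were compared after the values were seen.

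Most late markers were lower in mislocalized embryos at 2.5 to 3 h, with 10 of 10 muscle markers lower, 6 of 8 neuron and glia markers lower and 1 higher, and 10 of 17 tested Osiris and Tweedle genes lower and 3 higher. Of 3 tested late epidermis markers 2 were higher and 0 lower. Some genes were higher. The glial determinant gene repo had 28.2 and 29.2 CPM in mislocalized embryos, against 2.18 and 1.70 CPM in wild type (log2 change 3.89). The catecholamine synthesis genes ple and Ddc rose by 3.07 and 2.25 on the log2 scale; Ddc was not called with DESeq2 (2.13) or without wild type replicate 2 (1.62). In the first experiment repo and ple were higher as well, by 4.50 and 3.21 on the log2 scale, whereas Ddc was lower, at -2.08.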
